A study of Mus musculus with 24 samples.

Results

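The genes described here are 10 of the 43629 genes listed in the deposited liver RNA-seq tables. They lie on distal chromosome 4, from base 146239954 to base 147642513 (GRCm38 build of the mouse genome), with 39 other listed genes between the first and the last of them. Their names in the tables are 2610305D13Rik, Gm13152, Gm13251, Gm13248, Gm13139, Gm13166, Gm13169, Gm13140, Gm13142 and Gm13135. They were taken by name and had been chosen by their TPM in these libraries, by age and time. Their differences between old and young liver and over the day are therefore a description: no p-value of a single gene of the 10 is given for them, and counts of calls stand beside those of all genes without being read as support. The GENCODE M21 annotation gives 5 of the predicted names a zinc finger symbol. 2610305D13Rik is Zfp979 there, Gm13152 is Zfp982, Gm13251 is Zfp992, Gm13248 is Zfp993 and Gm13139 is Zfp991. Gm13166 is annotated as a long intergenic non-coding RNA, and the other 4, Gm13169, Gm13140, Gm13142 and Gm13135, are processed pseudogenes, which are copies of a spliced mRNA inserted back into the genome.

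KRAB zinc finger proteins are the largest family of transcriptional repressors in mammals. Their zinc fingers read DNA sequence, often inside retrotransposons, and their KRAB box recruits the corepressor TRIM28 (KAP1), which brings the histone methyltransferase SETDB1 and silences the bound site. The mouse genome holds many of these genes in tandem clusters, and the cluster on distal chromosome 4 is a young one that was built by repeated duplication. Zfp979 is also called Ssm1b, a strain-specific modifier known in mice for directing methylation of a transgene, and Rex2 and Zfp600 are other members of the cluster.

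All mice were wild type and of the inbred strain C57BL/6, aged about 19 months (old) or about 4 months (young). Livers were collected at zeitgeber times ZT2, ZT6, ZT10, ZT14, ZT18 and ZT22, in hours after lights on. Each age and time had 2 replicate libraries, 24 in all and 12 per age, and the labels do not say whether replicates were separate animals, so p-values measure the spread between these libraries. Depth equalled 8.70 to 12.3 M reads of 50 bases in old libraries and 9.68 to 13.7 M in young ones, so 1 TPM stood for 5.50 to 7.79 reads per kb of transcript in old and 5.85 to 8.56 in young. Replicate 2 of young ZT18 held RNA of pancreatic acinar cells: its summed acinar markers reached 2589 TPM, the highest of the young libraries, against at most 10.3 TPM in an old one. Levels are TPM divided by a per-library scaling factor, and a level of a gene in whole liver cannot tell more cells that express it from more RNA per cell.

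The coding sequences show how close the zinc finger genes are to each other. The 90-base stretch below lies within the part that encodes the KRAB box and was taken as the unbroken genomic stretch with the fewest differences among the 5 genes. It starts at coding base 58 in Gm13152, Gm13251, Gm13248 and Gm13139 and at coding base 103 in 2610305D13Rik, and capitals mark the bases that differ from Gm13251. Gm13251 (chr4:146464431-146464520, plus strand), Gm13248 (chr4:146655827-146655916, plus strand) and Gm13139 (chr4:147176774-147176863, plus strand) were the same over all 90 bases. 2610305D13Rik (chr4:147615290-147615379, minus strand) differed at 6 bases and Gm13152 (chr4:147510780-147510869, plus strand) at 7.
2610305D13Rik: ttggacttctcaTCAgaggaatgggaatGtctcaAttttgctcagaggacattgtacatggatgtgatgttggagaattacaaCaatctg
Gm13152: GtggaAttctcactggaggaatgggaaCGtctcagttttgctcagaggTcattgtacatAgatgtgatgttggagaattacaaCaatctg
Gm13251: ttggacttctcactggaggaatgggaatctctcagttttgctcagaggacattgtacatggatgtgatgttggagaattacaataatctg

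The best local alignments of the longest transcripts covered only part of some of them. Gm13251 and Gm13139 were 99.24% identical along 2494 bases, or 54.8% of the length of Gm13251 and 88.7% of that of Gm13139. Gm13248 and Gm13139 were 99.71% identical along 1019 bases, or 79.9% of the length of Gm13248 and 36.2% of that of Gm13139. 2610305D13Rik was 79.84% identical to Gm13251 along 1543 bases, and Gm13152 was 85.18% identical to it along 992 bases.

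The promoters of the 2 zinc finger genes least like the others were also related. The 250 bases before the start are shown for Zfp979, the RefSeq symbol of 2610305D13Rik (chr4:147642509-147642758, minus strand), and for Zfp982, that of Gm13152 (chr4:147492167-147492416, plus strand), since the results below turn on this pair. The promoter of Zfp984 (Gm13157 in the tables, chr4:147809789-147810038, minus strand), a cluster gene whose level was alike at both ages, is set beside them. The sequences are from RefSeq on GRCm38.p6, and capitals mark a run of 16 bases that is in all 3 and in the promoter of Rex2.
Zfp979: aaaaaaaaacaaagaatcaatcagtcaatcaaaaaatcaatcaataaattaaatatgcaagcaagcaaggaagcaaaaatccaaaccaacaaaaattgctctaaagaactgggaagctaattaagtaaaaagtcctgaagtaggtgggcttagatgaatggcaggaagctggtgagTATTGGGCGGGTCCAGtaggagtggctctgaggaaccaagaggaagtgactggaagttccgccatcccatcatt
Zfp982: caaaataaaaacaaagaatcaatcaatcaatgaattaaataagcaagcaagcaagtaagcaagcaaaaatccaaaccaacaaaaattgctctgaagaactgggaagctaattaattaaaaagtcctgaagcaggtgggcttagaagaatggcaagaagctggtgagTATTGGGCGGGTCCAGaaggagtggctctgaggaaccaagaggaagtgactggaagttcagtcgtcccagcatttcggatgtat
Zfp984: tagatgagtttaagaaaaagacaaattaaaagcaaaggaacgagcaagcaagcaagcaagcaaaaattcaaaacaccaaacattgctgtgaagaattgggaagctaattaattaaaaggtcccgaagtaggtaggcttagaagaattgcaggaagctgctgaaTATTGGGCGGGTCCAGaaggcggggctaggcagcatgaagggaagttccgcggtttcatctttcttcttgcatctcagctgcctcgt

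The run TATTGGGCGGGTCCAG was found in 9 of 32851 RefSeq promoter windows of the same length, or 0.0274%, on either strand. It holds the CCAAT motif, read on the other strand, and GGGCGG, and the pair overlap in it. CCAAT alone was in 33.8% of all promoter windows and GGGCGG in 32.7%. Searched on both strands, the TATA box motif TATAAA was in none of these 3 windows, against 12.4% of all promoter windows. The E-box CACGTG was in none of them either, against 6.02% of all, and the same held for the CRE motif TGACGTCA, against 1.55%. Aligned to all promoter windows, that of Zfp979 matched 11 others, all 11 on chromosome 4, with 98.77% identity to Rex2 over 244 bases and 92.27% to Zfp982 over 220 bases. The match to Zfp984 covered 147 bases at 87.08%. Any part of these promoter sequences in the age difference was not tested.

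Reads of 50 bases can be assigned to these genes only as far as their sequences differ. Of all distinct 50-base windows in its annotated transcripts, Gm13152 shared 11.9% with other genes, 2610305D13Rik 26.7%, Gm13142 27.8%, Gm13251 43.0% and Gm13140 43.1%. The share was 70.5% in Gm13166, 78.5% in Gm13135, 82.2% in Gm13139, 86.8% in Gm13248 and 92.6% in Gm13169. Levels depend on how the authors' pipeline divided reads between copies, most in the last 5 and to a lesser degree in the others. Gm13251, for one, shared 37.5% of its windows with Gm13139. The windows of 2610305D13Rik found elsewhere were mostly those of Zfp600 (18.9% of its windows), Rex2 (14.5%) and Zfp978 (13.2%). Those of Gm13248 were mostly in Gm13139 (81.9%), in the pseudogene Znf41-ps (62.2%) and in Gm13251 (54.4%).

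**Figure D1:**
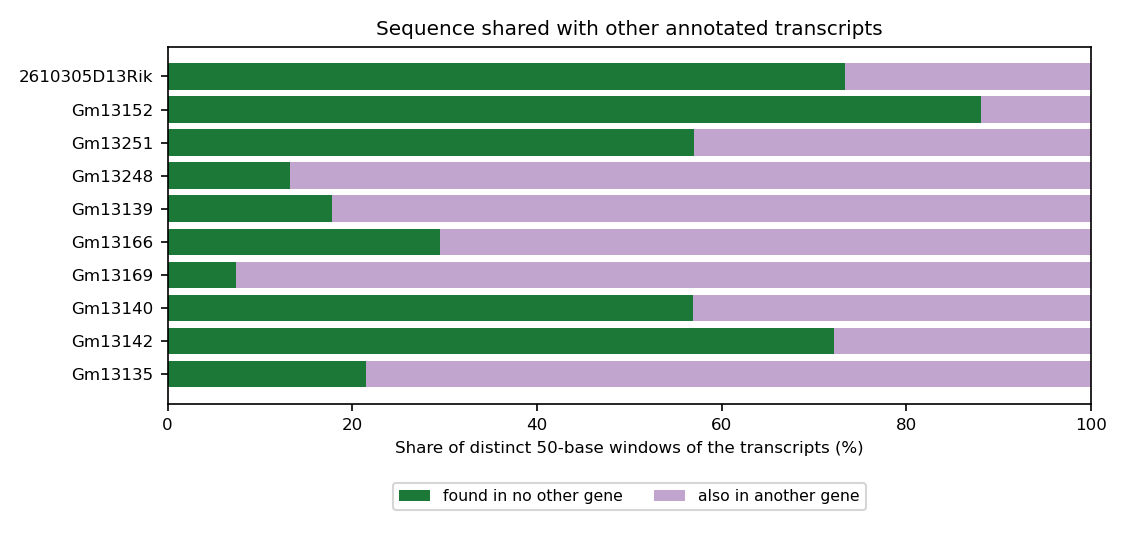
Share of the distinct 50-base windows of each gene's annotated transcripts (horizontal axis, percent) that is found in no other annotated gene (green) or also in another one (purple), for the 10 genes (vertical axis). Gm13152 shares 11.9% of its windows and Gm13169 92.6%.

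All 5 zinc finger genes were at higher levels in old than in young liver. 2610305D13Rik had the widest gap. It ran from 2.03 to 6.40 TPM in the 12 old libraries (median 3.51) and from 0.114 to 0.836 TPM in the 12 young ones (median 0.417). Every old library was above every young one. The means were 3.63 ± 1.30 TPM in old and 0.438 ± 0.232 TPM in young (SD, n = 12 each), a ratio of 8.29 and a log2 difference of 2.12 (SE 0.117, on the log2(TPM + 0.5) scale).

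Gm13152 was the most abundant of the 10. It ran from 9.69 to 26.6 TPM in old libraries (median 14.9) and from 4.81 to 11.9 TPM in young ones (median 6.33). The ranges overlapped, since an old library of ZT10 stood at 9.69 TPM. A young library of ZT18, the one with acinar RNA, reached 11.9 TPM, and one of ZT14 reached 9.82 TPM. The means were 16.0 ± 4.27 TPM in old and 7.17 ± 2.12 TPM in young (SD, n = 12 each), with a log2 difference of 1.11 (SE 0.117). This zinc finger gene, known from mouse embryonic stem cells, also shared least sequence with others.

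The 3 genes that share near-identical stretches were all higher in old. Gm13251 was at 2.57 to 4.69 TPM in old libraries (median 3.72) and at 0.589 to 1.56 TPM in young ones (median 1.20). Gm13248 was at 4.08 to 8.07 TPM in old libraries (median 6.12) and at 0.982 to 3.05 TPM in young ones (median 1.87). Gm13139 was at 3.26 to 7.51 TPM in old libraries (median 4.93) and at 0.978 to 2.94 TPM in young ones (median 1.60). In each of them the lowest old library was above the highest young one. Their log2 differences were 1.36 (SE 0.121), 1.43 (SE 0.127) and 1.36 (SE 0.150), in the same order. Summed with Znf41-ps, another copy, the level was 17.4 ± 3.21 TPM in old and 5.72 ± 1.74 TPM in young (SD, n = 12 each), a ratio of 3.04. The sum ran from 12.9 to 23.2 TPM in old libraries and from 2.78 to 8.60 TPM in young ones. The sum still depends in part on how reads were divided, since TPM is per length and the longest transcripts of Gm13251, Gm13248 and Gm13139 have 4550, 1275 and 2813 bases. For 2610305D13Rik with Zfp600, Rex2 and Gm13145 (Zfp978), the sum was 4.29 ± 1.51 TPM in old and 0.508 ± 0.297 TPM in young (SD, n = 12 each), a ratio of 8.45.

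Gm13166, the non-coding RNA, has no role known from the annotation. It was at 2.74 to 7.82 TPM in old libraries (median 4.54) and at 0.374 to 2.69 TPM in young ones (median 1.80). The ranges did not overlap, but the gap between them was narrow. The log2 difference was 1.31 (SE 0.179). Its longest transcript was 99.68% identical to that of Gm13236, another non-coding RNA of chromosome 4. Gm13236 held 51.7% of the windows of Gm13166 and was listed at 0 in all 12 old and all 12 young libraries. How shared reads were divided between them was not tested, so the level of Gm13166 may hold reads of both. Part of the sequence of Gm13166 is also that of Gm13248 (13.6% of its windows) and of Gm13139.

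The 4 pseudogenes derive from 2 genes of other chromosomes. Gm13169 and Gm13142 were 96.45% and 95.49% identical along their length to Ppp2r5a of chromosome 1, a regulatory subunit of protein phosphatase 2A. Gm13140 and Gm13135 were 97.15% and 96.99% identical to Smarca5 of chromosome 8, the ATPase of ISWI chromatin remodelling complexes. Both parent genes were alike at both ages. Ppp2r5a averaged 76.3 ± 6.91 TPM in old and 73.0 ± 6.55 TPM in young (SD, n = 12 each; log2 difference 0.06, SE 0.055), with a limma adjusted p of 0.772. Smarca5 averaged 10.2 ± 1.39 TPM in old and 9.64 ± 0.541 TPM in young (SD, n = 12 each; log2 difference 0.07, SE 0.069), with a limma adjusted p of 0.834.

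Of the pseudogenes, Gm13169 had the largest difference between the ages. It was at 1.59 to 3.21 TPM in old libraries (median 2.19) and at 1.10 to 1.91 TPM in young ones (median 1.60), with a log2 difference of 0.45 (SE 0.086). The ranges overlapped. Gm13142 was at 3.85 to 6.43 TPM in old libraries and at 3.47 to 6.54 TPM in young ones, Gm13140 at 0.768 to 1.72 TPM in old and 0.697 to 1.22 TPM in young, and Gm13135 at 1.03 to 1.57 TPM in old and 0.756 to 1.25 TPM in young. Their log2 differences were 0.13, 0.11 and 0.23, and their ranges overlapped. Gm13169 shared 88.6% of its windows with the pseudogene Gm13233 and 82.3% with Gm13244. Summed over these 3, the level was 5.39 ± 1.33 TPM in old and 3.75 ± 0.554 TPM in young (SD, n = 12 each), a ratio of 1.44. Across the 24 libraries, Gm13142 and Ppp2r5a had a Pearson correlation of 0.59 and a Spearman correlation of 0.50, over points that share library, scaling and sequence. The Pearson correlation was lower for Gm13169 with Ppp2r5a (0.43), Gm13135 with Smarca5 (0.38) and Gm13140 with Smarca5 (0.16).

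**Figure D2:**
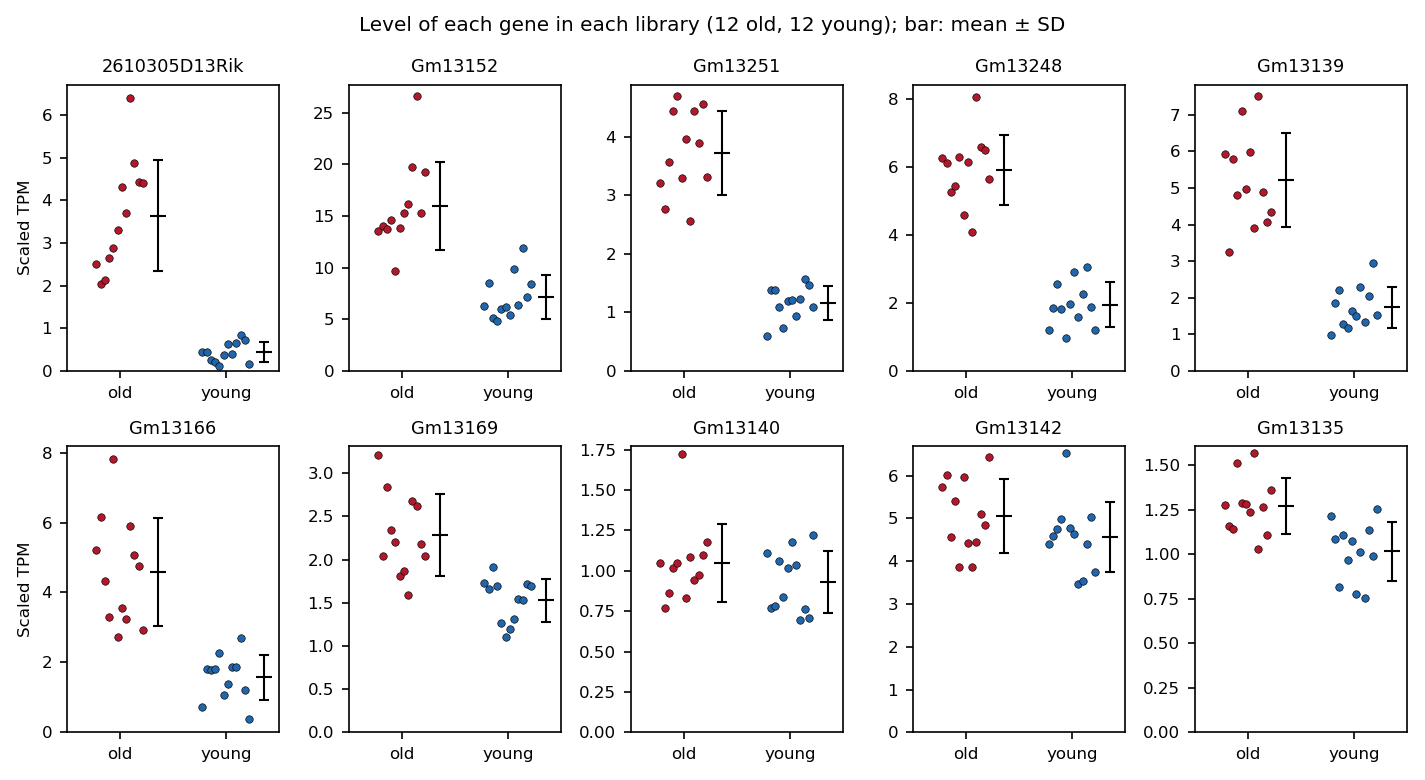
Scaled TPM (vertical axes, each from 0) of the 10 genes in the 12 old libraries (red, left) and the 12 young libraries (blue, right), ordered by time within an age, with mean and SD at the side. In 2610305D13Rik the old libraries lie between 2.03 and 6.40 TPM and the young ones between 0.114 and 0.836 TPM, while in Gm13142 both ages cover much the same range.

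Counted together, 7 of the 10 genes were higher in old at a limma adjusted p under 0.05 and 0 were lower, against 1.14% of all 12261 tested genes higher. All 10 passed the filter of a mean of at least 1 TPM. In 5 of the 10, the lowest old library was above the highest young library, against 0.155% of the tested genes, or 19 genes. Nothing is read from these counts, since the genes were picked with this contrast known. The median log2 difference was 1.21 over the 10 and -0.01 over all tested genes. The 3 genes that were not called, Gm13140, Gm13142 and Gm13135, were pseudogenes with log2 differences between 0.11 and 0.23. Summed over the 10, the level was 48.7 ± 6.50 TPM in old, from 41.7 to 61.9 TPM, and 22.1 ± 2.99 TPM in young, from 18.7 to 29.9 TPM (SD, n = 12 each). Gm13152 made up 32.6% of the sum in old and 32.1% in young. The share of 2610305D13Rik was 7.34 ± 1.96% in old and 1.96 ± 0.934% in young (SD, n = 12 each), and that of Gm13142 was 10.5 ± 2.18% in old and 21.1 ± 4.68% in young.

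The order of the levels by mean was Gm13152, Gm13248, Gm13139, Gm13142, Gm13166, Gm13251, 2610305D13Rik, Gm13169, Gm13135 and Gm13140 in old liver. Gm13248 (5.91 ± 1.03 TPM), Gm13139 (5.22 ± 1.29), Gm13142 (5.06 ± 0.859) and Gm13166 (4.58 ± 1.54) had overlapping spreads in old (SD, n = 12). Differences between these genes within the same libraries were not tested. In young liver Gm13142, at 4.57 ± 0.817 TPM, stood above Gm13248 at 1.94 ± 0.662 TPM, and 2610305D13Rik was last (SD, n = 12).

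In 7 of the 10 genes, both old libraries were above both young libraries at each of the 6 times, against 0.383% of the tested genes. These were the 5 zinc finger genes, Gm13166 and Gm13169. For 2610305D13Rik the log2 difference was smallest at ZT2 (1.55, SE 0.287) and largest at ZT22 (2.44, SE 0.287). Tested by limma at single times, with 2 libraries per age, 0 of the 10 were higher at an adjusted p under 0.05 at ZT2 and at ZT6, where 0.0% of all tested genes were, with 7 and 5 of the 10 at an unadjusted p under 0.05, against 2.09% and 2.21% of all. At ZT10 the count was 4 of the 10, against 0.449% of all. At ZT14, ZT18 and ZT22 it was 1 each, 2610305D13Rik every time, against 0.0326%, 0.0163% and 0.00816% of all. By limma's F test of whether the difference varied over the 6 times, 0 of the 10 genes varied at an adjusted p under 0.05 (0.0163% of all tested genes did) and 0 at an unadjusted p under 0.05 (3.6% of all).

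The levels of 2610305D13Rik and Gm13152 also varied over the day. Such variation was common, with 23.9% of all tested genes called rhythmic over both ages by limma. In old liver 2610305D13Rik averaged 2.27, 2.38, 3.09, 4.00, 5.64 and 4.41 TPM at ZT2, ZT6, ZT10, ZT14, ZT18 and ZT22 (2 libraries each). In young liver it averaged 0.443, 0.240, 0.243, 0.510, 0.748 and 0.447 TPM at those times. Both ages had their highest mean at ZT18, in the dark phase. A 24-h cosine fitted to the mean of both ages had an amplitude, the log2 difference between peak and trough, of 0.87 with a peak at ZT 17.96. In old alone the amplitude was 1.12, and in young alone it was 0.64. These amplitudes are on the log2(TPM + 0.5) scale, which flattens the low young levels. The ratio of the highest to the lowest mean was 2.48 in old and 3.11 in young, so the amplitudes do not show a larger daily swing in old.

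Gm13152 averaged 13.8, 14.2, 11.7, 15.7, 23.2 and 17.2 TPM over the same times in old liver. In young liver it averaged 7.38, 4.96, 6.13, 7.61, 9.15 and 7.80 TPM. Again both ages had their highest mean at ZT18. In young this rested on the library with acinar RNA, at 11.9 TPM. The other young library of ZT18 stood at 6.37 TPM, below the young means at ZT2, ZT14 and ZT22. The amplitude over both ages was 0.68 with a peak at ZT 19.1, and it was 0.73 in old and 0.64 in young. With the deposited TPM left unscaled the amplitude for both ages was 0.55, and without replicate 2 of young ZT18, the library with acinar RNA, it was 0.59.

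These 2 were the genes called rhythmic over both ages among the 10 by limma at an adjusted p under 0.05, against 23.9% of all tested genes, and Gm13152 was not called with unscaled TPM. In old alone 1 of the 10 was called, against 8.96% of all, and in young alone 0, against 10.7%, with 2 of the 10 at an unadjusted p under 0.05. Rhythms did not pass the test of a difference between ages in any of the 10 by limma (0.0% of all tested genes did), and 0 of the 10 had an unadjusted p under 0.05 there, against 3.51% of all. Gm13251, Gm13248 and Gm13139 stayed within a ratio of 1.39, 1.43 and 1.47 between their highest and lowest mean in old, against 2.48 for 2610305D13Rik.

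**Figure D3:**
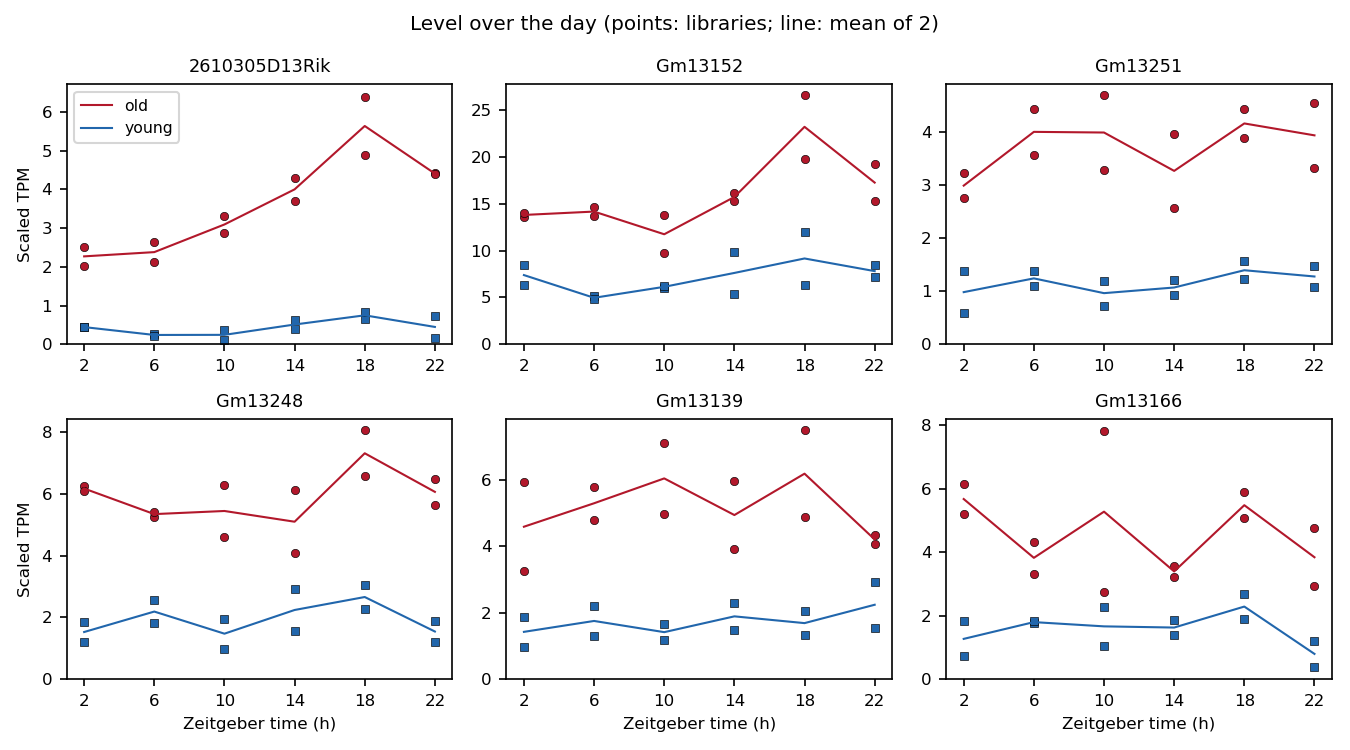
Scaled TPM (vertical axes, each from 0) against zeitgeber time in hours for the 5 zinc finger genes and Gm13166, with 1 point per library and lines through the means of 2 libraries, old in red and young in blue. 2610305D13Rik and Gm13152 have their highest means at ZT18 at both ages, with old means of 5.64 and 23.2 TPM and young means of 0.748 and 9.15 TPM. The young mean of Gm13152 at ZT18 comes from libraries at 6.37 and 11.9 TPM, the higher being the one with acinar RNA.

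The surrounding genes are given as a description. The 10 genes were picked from among them with the age contrast known. A lack of calls in the rest therefore cannot show how far along the chromosome the age difference reached. In a stretch of 3.5 Mb that starts 1.24 Mb before Gm13169, 115 other genes were listed. Of these, 84 were above 0 in at least 1 library and 26 were tested, 3 of them with a start between the first and the last of the 10. Among these 26, 0 were higher and 0 lower in old at a limma adjusted p under 0.05, with 3 at an unadjusted p under 0.05, and their median log2 difference was 0.07. The 18 tested genes that start beyond 2610305D13Rik had log2 differences from -0.16 to 0.21. Among them, Mfn2, a mitochondrial fusion GTPase, averaged 36.2 ± 11.4 TPM in old and 35.8 ± 14.1 TPM in young (SD, n = 12 each). Fbxo6, a ubiquitin ligase subunit that binds glycoproteins, averaged 30.1 ± 8.20 TPM in old and 28.3 ± 7.56 TPM in young, Plod1, a collagen lysyl hydroxylase, 19.1 ± 2.96 TPM in old and 16.9 ± 2.32 TPM in young, and the kinase Mtor 6.82 ± 2.37 TPM in old and 6.64 ± 3.28 TPM in young. Tnfrsf1b, a TNF receptor on the other side, averaged 9.91 ± 3.14 TPM in old and 7.76 ± 2.19 TPM in young. The other 5 of the 10 most abundant tested genes in this stretch, Gm13226, Rps19-ps3, Gm13202, Mad2l2 and 2510039O18Rik, had log2 differences between -0.21 and 0.12.

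Not all cluster genes followed the age difference. Zfp984 (Gm13157) averaged 2.13 ± 0.564 TPM in old and 1.98 ± 0.369 TPM in young, with a limma adjusted p of 0.910, and Zfp933 2.09 ± 0.516 TPM in old and 2.38 ± 0.521 TPM in young, with an adjusted p of 0.625 (SD, n = 12 each). Znf41-ps and Gm13233, tested neighbours that share sequence with the described genes, are named after their values were seen. Znf41-ps was at 2.51 ± 1.59 TPM in old, with 3 libraries listed at 0, and 0.887 ± 0.831 TPM in young, with 5 listed at 0 (limma adjusted p = 0.400). Gm13233 was at 1.86 ± 0.467 TPM in old and 1.31 ± 0.162 TPM in young (limma adjusted p = 0.0983). A further 10 genes of the cluster with a zinc finger symbol in GENCODE M21 were below the filter but above 0 in at least 1 library. In 9 of these 10 the mean was higher in old, with a highest mean of 0.491 TPM in old and 0.0579 TPM in young, both in Gm13145. The same count over all genes below the filter is not given here, and nothing is read from it. Protein-coding neighbours that share sequence with the described genes but lack such a symbol are not among the 10. Of them, Gm21411 averaged 0.872 TPM in old and 0.309 TPM in young, and Gm13212 0.585 TPM in old and 0.533 TPM in young. Just inside the limits used to choose the block, Gm13167, which is no member, averaged 0.853 TPM in old and 0.653 TPM in young, and Zfp534, likewise no member, was listed at 0 in all 12 old libraries and averaged 0.00697 TPM in young. Just outside them, Zfp600 averaged 0.0731 TPM in old and 0.00278 TPM in young, and Gm13137 was listed at 0 in all 12 old libraries and averaged 0.0513 TPM in young.

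**Figure D4:**
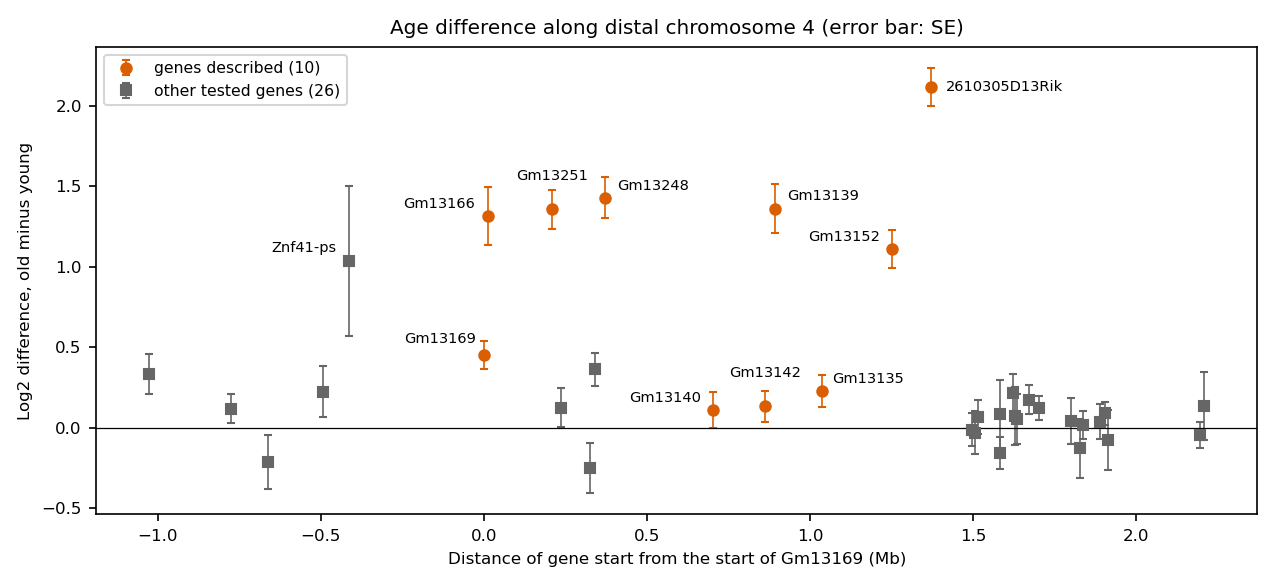
Log2 difference, old minus young (vertical axis, with SE), of the 36 tested genes against the distance of their start from the start of Gm13169 in Mb (horizontal axis), with the 10 genes described as orange circles and the other 26 as grey squares. 2610305D13Rik is highest at 2.12, and the 18 tested genes beyond it lie between -0.16 and 0.21.

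Another layer of overlap is that of annotated genes along the chromosome, some of them on the opposite strand. 9 of the 10 genes overlap another listed gene, and 8 of the 10 overlap one of the opposite strand, Gm26573 or C230088H06Rik. Those 2 long RNAs were listed at 0.00754 TPM or less in every library, and the libraries were strand-specific, though whether reads were counted by strand is not given in the sources used here.

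Genes outside the block with the most similar pattern were found by correlating each tested gene with the mean standardised log2 level of the 10 over the 24 libraries. The top 5 were Igkv5-39 (Pearson 0.94), Igkc (0.91), Fitm1 (0.90), Gnai1 (0.90) and Ighg2c (0.89), none of them on chromosome 4. Igkv5-39, Igkc and Ighg2c encode antibody chains of plasma cells, Fitm1 a protein of lipid droplet formation and Gnai1 an inhibitory G protein subunit. Within the 12 old libraries their correlations were 0.15, 0.26, 0.10, 0.34 and -0.18 in the same order, and within the 12 young ones 0.56, 0.49, -0.29, -0.10 and 0.39. The pooled values include the step between the ages, and all points share library and scaling.

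Among plasma and B cell markers, 2 antibody genes moved with age together with the block. Of 7 such markers 6 were listed, 3 were tested and 2, Igkc and Ighm, were higher in old by limma. The third, Cd79b, averaged 1.72 ± 0.993 TPM in old and 1.64 ± 1.08 TPM in young (SD, n = 12 each; limma adjusted p = 0.953). In old, Igkc averaged 142 TPM and Ighm 54.7 TPM. None of the 6 was at 0 in all libraries. The summed level of the 6 ran from 104 to 596 TPM in old libraries and from 11.7 to 53.1 TPM in young ones. It correlated with the mean standardised level of the 10 genes at 0.91 over all 24 libraries, at 0.29 within the 12 old ones and at 0.45 within the 12 young ones. Neutrophil markers were higher in 2 of 3 tested, with sums of 2.63 to 136 TPM in old and 3.48 to 22.5 TPM in young. Of Kupffer cell and macrophage markers 1 of 6 was higher (Marco), with sums of 206 to 626 TPM in old and 209 to 281 TPM in young, and of cholangiocyte markers 1 of 1 (Sox9), with sums of 1.54 to 5.27 TPM in old and 1.08 to 4.84 TPM in young. The part of these cells in the age difference of the block was not tested. Markers of hepatocytes (0 of 5), sinusoidal endothelium (0 of 5), stellate cells (0 of 4), T cells (0 of 1) and pancreatic acinar cells (0 of 5) were not called by limma in either direction, with 0, 1, 1, 0 and 0 at an unadjusted p under 0.05. The 5 hepatocyte markers summed to 74238 to 101724 TPM in old libraries and 69237 to 99401 TPM in young ones.

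Within an age, the 10 genes were related in part. Over all 24 libraries the median Pearson correlation of the 45 pairs was 0.54, but it was -0.01 within old and -0.02 within young libraries. The 10 pairs of zinc finger genes had medians of 0.37 within old and 0.41 within young. Gm13251 and Gm13248, which share sequence, had 0.61 within old and 0.78 within young. Gm13248 with Gm13166 had 0.68 within old and 0.43 within young. The pair 2610305D13Rik and Gm13152, which share little and were both highest on average at ZT18, had 0.67 within old and 0.38 within young. Taken as deviations from the means of the age and time groups, however, the correlation of 2610305D13Rik with Gm13152 was -0.18. It was 0.86 for Gm13251 with Gm13248 and 0.28 for Gm13248 with Gm13166. Gm13248 and Gm13135 ran opposite to each other at -0.71 within old and -0.51 within young. All pairs share library, scaling and, for copies, sequence.

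**Figure D5:**
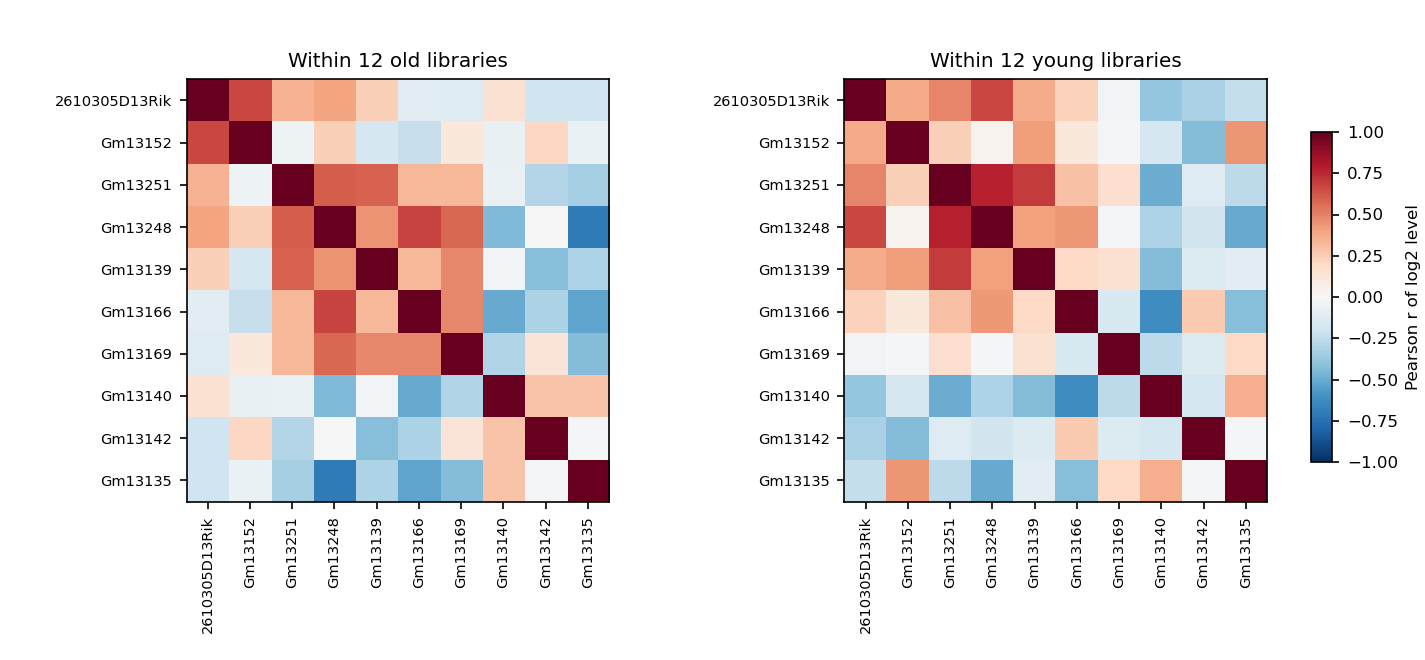
Pearson correlation of log2(scaled TPM + 0.5) between pairs of the 10 genes (both axes) over the 12 old libraries (left) and the 12 young libraries (right), from -1 in blue to 1 in red. Gm13251, Gm13248 and Gm13139 form a red square at both ages, and the pseudogenes Gm13140 and Gm13135 are mostly blue against them.

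The partners through which KRAB zinc finger proteins act were examined next. Of 34 genes of the silencing machinery 32 were listed and 28 tested, and 0 were higher and 0 lower in old by limma at an adjusted p under 0.05, with 2 higher at an unadjusted p under 0.05. Their median log2 difference was 0.01, beside -0.01 over all tested genes. Among those with the smallest p were H3f3b, a histone H3.3 gene, at 94.7 ± 16.9 TPM in old and 81.2 ± 6.24 TPM in young, the methyltransferase Ehmt2 at 21.1 ± 3.36 TPM in old and 17.6 ± 2.53 TPM in young, and Morc3 (adjusted p = 0.195, 0.269 and 0.608). Trim28 itself, named for its role, averaged 23.7 ± 3.18 TPM in old and 24.9 ± 3.35 TPM in young (SD, n = 12 each; limma adjusted p = 0.869), and Setdb1 5.07 ± 0.851 TPM in old and 5.44 ± 1.41 TPM in young (adjusted p = 0.931). Of 18 other KRAB zinc finger genes, which include Zfp600 of the same cluster, below the filter, 7 were tested, and 0 were called in either direction by limma, with 1 lower at an unadjusted p under 0.05. The 4 with the smallest p, Zfp961, Zfp932, Zfp568 and Rsl1, had log2 differences of -0.35, -0.20, -0.20 and -0.23. Of the 360 genes whose listed name is Zfp and a number, 216 were tested and 0 were called by limma in either direction. At an unadjusted p under 0.05, 4 were higher and 14 lower, and the median log2 difference of the 216 was -0.03. The 5 zinc finger genes described here are listed under other names, as is Zfp984, and are not among the 360.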

How the data were processed

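Per the labels, mRNA was taken by oligo-dT selection from frozen liver and made into strand-specific libraries of single 50-base reads. The submitters' processing notes name HISAT2, StringTie and GRCm38, with versions not given in the sources used here. The deposited TPM, FPKM and coverage are the authors' StringTie values per gene: TPM sum to the same total in every library, FPKM are scaled for depth, and coverage is the mean signal per base.

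Printed levels are scaled TPM, that is TPM over a median-of-ratios factor computed from 13270 genes detected in all 24 libraries. Genes with a mean deposited TPM of at least 1 (12261) were fitted as log2(scaled TPM + 0.5) with limma 3.58.1 in R 4.3.3 (empirical Bayes with a trend), a pseudocount that understates changes of low genes. A model of the 12 age and time groups gave age differences, and 24-h cosines per age gave rhythms, with F tests and Benjamini-Hochberg adjustment over all 12261 genes at 0.05. Depth came from the largest ratios of deposited coverage to deposited FPKM. The files hold no read counts, so counting error is not given. The steps were tested on simulated data.

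Sequence identity and shared windows came from GENCODE M21 transcripts (BLAST 2.17.0) and promoters from RefSeq. The 10 genes, the gene lists (silencing machinery, other KRAB zinc fingers, genes named Zfp and a number, markers of 9 cell types) and the tests were chosen with earlier results of these data known. The genes named are the 10, the tested neighbours in a stretch of 3.5 Mb (of 26, the 10 most abundant), the 5 with the highest likeness, and up to 4 per list with the smallest p, of which 1 is not reported here. Tables and plots were made with matplotlib 3.10.9 and pandas 2.3.3 in Python 3.11.15. Replicate numbers were taken from the labels, which do not say that they mark a shared batch.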

Additional observations from a re-analysis of the deposited data

Results flagged for a closer look

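Rex2, a zinc finger gene of the same cluster that lay below the filter on levels and was not tested, showed a signal in old liver above that in young: it averaged 0.0949 ± 0.0842 TPM in old, from 0.0360 to 0.335 TPM, and 0.00848 ± 0.00911 TPM in young (SD, n = 12 each), where 6 of 12 libraries were listed at 0. Its lowest old library was above its highest young library, as in 1 of the 58 genes of the region that were below the filter and above 0 in some library, and in 0.0858% of all 9323 such genes. Rex2 shares sequence with 2610305D13Rik, and the part of shared reads in its level was not tested.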

How the results depend on the processing

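Each of the 10 age differences kept its direction under all scalings, pseudocounts, filters and left-out libraries in which the gene was tested, except Gm13142 in replicate 1 libraries only (-0.03). The count of 7 higher was the same without any 1 of the 24 libraries (7 to 7) and was 1 at a mean of at least 5 TPM, where Gm13152 was the 1 gene left to test. Over all genes the count was 155 to 223 without 1 library, 116 at that filter and 353 with the replicate block. Under the block the 10 genes had 7 age calls, and 2 in place of 1 for rhythm in old. Replicate numbers did not meet the rule for pairs: deviations correlated over 0.1 in 52 of 66 pairs of groups (lowest -0.16), and 11 of 12 groups had a positive mean correlation. Rhythm calls over both ages were 2 without any 1 library and 1 with unscaled TPM or the filter at 5 TPM. In old alone, they were 0 with a pseudocount of 0.1 or the filter at 5 TPM. Over all genes, variation of the age difference was called in 1 gene with quantile normalization or a pseudocount of 0.1, in 17 without a filter and in 0 at 5 TPM, and rhythm differences in 2 with quantile normalization and 1 at 5 TPM. The median correlation of pairs of the 10 was -0.0081 within old, -0.0207 within young and 0.000753 for deviations from group means. With deposited coverage in place of TPM, chosen after seeing the data, the log2 differences were 1.09 for 2610305D13Rik, 0.99 for Gm13251, 0.32 for Gm13139 and 0.21 for Gm13166, on a scale of smaller values against the same pseudocount. A pseudocount of 0.1 gave 2.85 and one of 1 gave 1.65 for 2610305D13Rik. The summed level was 2.15 to 2.28 times that of young without 1 library. The cause of these changes was not tested beyond the smaller sets of genes. Levels near 1 TPM rest on few reads, and shared sequence limits Gm13248, Gm13139, Gm13169 and Gm13135 most.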
